A study of Homo sapiens with 12 samples.

Results

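The 9 genes described here encode proteins that megakaryocytes and platelets are known for, namely ITGA2B, ITGB3, GP1BA, GP9, GP6, PF4, PPBP, VWF and THBS1. They were taken by their symbols from a table of RNA sequencing counts that lists 26485 genes for HEL cells. HEL is an established human erythroleukemia cell line, grown from an acute myeloid leukemia, and the cells carried DNA barcodes that mark clones. The samples were 2 cultures without drug, kept with the solvent DMSO (NT), and 10 relapses, which are the cells that grew back after drug exposure for 72 h. The relapses followed 1.8 µM doxorubicin alone (Doxo, n = 3), 1.8 µM doxorubicin with 6 µM cytarabine (Doxo+Cyta, n = 3), or both of these with 0.1 µM decitabine (Doxo+Cyta+DAC, n = 4). Doxorubicin poisons topoisomerase II, cytarabine blocks DNA synthesis and decitabine inhibits DNA methyltransferases. All samples came from 1 barcoded line. No relapse after decitabine with only 1 other drug was analysed here, and the outgrowth of other clones cannot be told apart from a change within clones. The comparisons address how far the platelet genes of relapsed cells differ from those of untreated cells and between drug regimens.

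Megakaryocytes are the bone marrow cells that shed platelets, and they share a precursor with red cells. Platelets stop bleeding by holding on to the vessel wall through glycoprotein receptors, releasing the contents of their granules and joining to each other through the fibrinogen receptor. Transcription factors of the GATA and ETS families are known to drive many of these genes together. HEL cells are known for carrying both erythroid and megakaryocytic genes.

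In Doxo+Cyta+DAC relapses the tested members changed in both directions, where 24.9% of all tested genes were higher and 23.7% lower than in NT. GP9 fell 4.35-fold relative to NT, and ITGA2B fell 1.44-fold. GP6 rose 6.44-fold, GP1BA 1.90-fold and THBS1 12.3-fold (7.82-fold without replicate 31). With all libraries ITGB3 did not pass the test in any of the 6 comparisons between groups. No member passed the edgeR test between NT, Doxo and Doxo+Cyta. Under some of the alternative settings THBS1 and GP6 passed in Doxo over NT, and THBS1 and ITGB3 in Doxo over Doxo+Cyta.

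The promoters of 4 members that changed in opposite directions are given so that their letters can be compared, ITGA2B and GP9 being lower and GP6 and THBS1 higher in Doxo+Cyta+DAC. Each is the 250 bases before the gene's start in RefSeq on GRCh38.p14, written along the gene's strand. That start is not always the one in the annotation used for the counts. There ITGA2B starts at 44389505, so the bases between that point and the window are left out. GP9 starts there at 129060767, so its window reaches into the counted gene. The windows of GP6 and THBS1 end right before the starts used for the counts. Capitals mark GATAA, the core that GATA factors bind, and GGAAG, a core of many ETS sites, or their complements TTATC and CTTCC.
ITGA2B, chr17:44389650-44389899, minus strand: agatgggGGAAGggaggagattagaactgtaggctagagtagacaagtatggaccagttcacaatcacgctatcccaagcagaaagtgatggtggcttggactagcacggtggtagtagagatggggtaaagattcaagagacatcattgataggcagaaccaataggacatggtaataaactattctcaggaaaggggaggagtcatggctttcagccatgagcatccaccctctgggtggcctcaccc
GP9, chr3:129060529-129060778, plus strand: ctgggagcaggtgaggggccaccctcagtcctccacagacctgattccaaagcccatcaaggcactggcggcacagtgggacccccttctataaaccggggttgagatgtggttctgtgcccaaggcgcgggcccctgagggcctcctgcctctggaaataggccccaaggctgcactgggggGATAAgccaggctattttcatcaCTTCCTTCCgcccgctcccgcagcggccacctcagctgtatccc
GP6, chr19:55038265-55038514, minus strand: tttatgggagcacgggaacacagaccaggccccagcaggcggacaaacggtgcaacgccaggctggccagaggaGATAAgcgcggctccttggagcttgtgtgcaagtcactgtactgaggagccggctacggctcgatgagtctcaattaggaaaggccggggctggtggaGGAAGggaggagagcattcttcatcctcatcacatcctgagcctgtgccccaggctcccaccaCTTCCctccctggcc
THBS1, chr15:39580829-39581078, plus strand: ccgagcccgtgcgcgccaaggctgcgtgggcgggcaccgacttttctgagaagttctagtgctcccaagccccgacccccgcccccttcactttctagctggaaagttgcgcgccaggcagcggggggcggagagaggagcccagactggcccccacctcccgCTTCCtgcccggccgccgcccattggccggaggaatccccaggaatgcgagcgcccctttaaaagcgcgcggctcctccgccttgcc
GATAA was found 1 time each in the windows of GP9 and GP6, and 0 times in those of ITGA2B and THBS1. It lies in 20.4% of all 35116 RefSeq promoters of this length. GGAAG was found 2 times in GP9 and in GP6 and 1 time in ITGA2B and in THBS1, against 65.1% of all promoters with at least 1. CpG, the pair of bases that carries DNA methylation, occurred 2 times in ITGA2B, 8 times in GP9, 10 times in GP6 and 24 times in THBS1, beside a median of 11 over all promoters. A match is a match of letters only, and DNA methylation was not analysed here. The ITGA2B numbers do not cover the bases next to the start used for its counts, so they are not like those of GP6 and THBS1. Of the 9 members 5 had a window in the RefSeq table, the other being PPBP, while ITGB3, GP1BA, PF4 and VWF were not matched.

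Total counts ranged from 12763582 to 19106235 per library, and 14164 genes passed the filter on low counts. Replicates of the same group differed by more than sampling noise, with a variance over the sampling variance from 3.11 to 48.6 for the 13 pairs. Doxo replicate 4 stood apart from Doxo 5 and 6 (29.4 and 27.0, against 3.11 between the other two), and Doxo+Cyta replicate 20 from 19 and 22 (46.8 and 48.6, against 7.33). These libraries were kept, and results that turn on them are also given without both. P-values measure the spread between these cultures. In such bulk samples, fewer cells of a type and less RNA per cell cannot be told apart. Levels are given as TMM-scaled CPM, each gene's share of its library's counts brought to a common total with the TMM factors of edgeR, and a gene was called at an adjusted p under 0.05.

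ITGA2B and ITGB3 encode the integrin chains alpha IIb and beta 3, which pair to form the fibrinogen receptor. ITGA2B lies on GRCh38 chromosome 17, from 44372182 to 44389505 on the minus strand. Its level was 1394 and 1411 CPM in NT, 1543, 1273 and 1223 in Doxo, 1257, 1713 and 1433 with Doxo+Cyta, and 857, 1041, 1082 and 922 with Doxo+Cyta+DAC. The 4 Doxo+Cyta+DAC libraries lay below all 8 others. The log2 fold change of Doxo+Cyta+DAC was -0.52 over NT (SE 0.14, adjusted p = 0.00575), -0.46 over Doxo (SE 0.12, adjusted p = 0.00452) and -0.59 over Doxo+Cyta (SE 0.12, adjusted p = 0.000802). ITGA2B remained the highest of the 9 genes in every group.

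ITGB3, on chromosome 17 from 47253842 to 47312711 on the plus strand, was at 125 and 166 CPM in NT and at 135, 154 and 122 in Doxo. It was at 83.4, 78.3 and 161 CPM in Doxo+Cyta and at 96.2, 122, 118 and 140 with Doxo+Cyta+DAC. The groups overlapped, and Doxo+Cyta 22 lay far above its 2 replicates. The log2 fold change over NT was -0.29 with Doxo+Cyta+DAC (95% interval -0.81 to 0.23, adjusted p = 0.34) and -0.43 with Doxo+Cyta (95% interval -0.99 to 0.12, adjusted p = 0.364). Without Doxo+Cyta 22, ITGB3 was higher than Doxo+Cyta by 0.55 on the log2 scale in Doxo+Cyta+DAC (adjusted p = 0.0112) and by 0.75 in Doxo (adjusted p = 0.0376). The ratio of ITGA2B to ITGB3, both per kilobase of exon, ranged from 9.69 to 13.4 with Doxo+Cyta+DAC and from 12.2 to 32.1 in the other libraries, so the ranges overlapped.

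GP1BA and GP9 encode the glycoproteins Ib alpha and IX, which stand in 1 complex that binds von Willebrand factor on the vessel wall. The partners moved apart. GP1BA, on chromosome 17 from 4932275 to 4935030 on the plus strand, was at 30.0 and 33.2 CPM in NT, 37.8, 29.4 and 29.4 in Doxo, 26.9, 44.7 and 37.5 with Doxo+Cyta, and 45.3, 69.9, 77.7 and 47.9 with Doxo+Cyta+DAC. Every Doxo+Cyta+DAC library lay above the 8 others, the nearest being Doxo+Cyta 20 at 44.7 CPM. The log2 fold change was 0.93 over NT (SE 0.24, adjusted p = 0.00585), 0.91 over Doxo (SE 0.21, adjusted p = 0.00203) and 0.73 over Doxo+Cyta (SE 0.21, adjusted p = 0.00764). Without NT replicate 1 the change over NT was 0.86 and did not pass (adjusted p = 0.0649, the highest over the alternatives, which reached down to 0.000628).

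GP9, on chromosome 3 from 129060767 to 129062411 on the plus strand, was at 140 and 135 CPM in NT, 102, 168 and 163 in Doxo, 151, 199 and 167 with Doxo+Cyta, and 23.1, 43.3, 31.2 and 28.6 with Doxo+Cyta+DAC. The 4 Doxo+Cyta+DAC libraries lay far below the 8 others, of which Doxo 4 was the lowest. The log2 fold change was -2.12 over NT (SE 0.22, adjusted p = 7.86e-06), -2.20 over Doxo (SE 0.20, adjusted p = 1.39e-06) and -2.45 over Doxo+Cyta (SE 0.20, adjusted p = 4.20e-07).

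Other chains of that complex were less informative. GP5, which encodes glycoprotein V and was chosen after its values were seen, had a log2 fold change of -0.76 with Doxo+Cyta+DAC over Doxo+Cyta (adjusted p = 0.00618) and of -0.27 over NT (adjusted p = 0.379). GP1BB, which encodes glycoprotein Ib beta, had 0 counts in every library. Both of its exon records lie within the read-through gene SEPT5-GP1BB, which held 25 counts in all, and fragments that overlap several genes were not counted. Its level therefore cannot be read from these counts.

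GP6 encodes the platelet receptor for collagen, which signals through the Fc receptor chain of FCER1G. GP6 lies on chromosome 19, from 55013707 to 55038264 on the minus strand. Its level was 6.38 and 8.34 CPM in NT, 10.8, 2.85 and 3.98 in Doxo, 5.07, 8.74 and 5.56 with Doxo+Cyta, and 44.7, 52.2, 55.4 and 36.8 with Doxo+Cyta+DAC. The Doxo+Cyta+DAC libraries did not overlap with any other, and among the rest Doxo 4 was the highest. The log2 fold change of Doxo+Cyta+DAC was 2.69 over NT (SE 0.42, adjusted p = 0.000166), 3.02 over Doxo (SE 0.36, adjusted p = 1.08e-05) and 2.88 over Doxo+Cyta (SE 0.36, adjusted p = 1.25e-05). Without Doxo 4 the change over Doxo was 3.80, and that of Doxo over NT was -1.14 (edgeR, adjusted p = 0.0189). The annotation also lists GP6 on 9 alternate contigs, and whether fragments that fit several copies were counted was not tested. FCER1G, also chosen after its values were seen, was higher by 0.70 on the log2 scale in Doxo+Cyta+DAC over NT (adjusted p = 0.00348), and its change over Doxo+Cyta was 0.00 (adjusted p = 0.999).

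**Figure D1:**
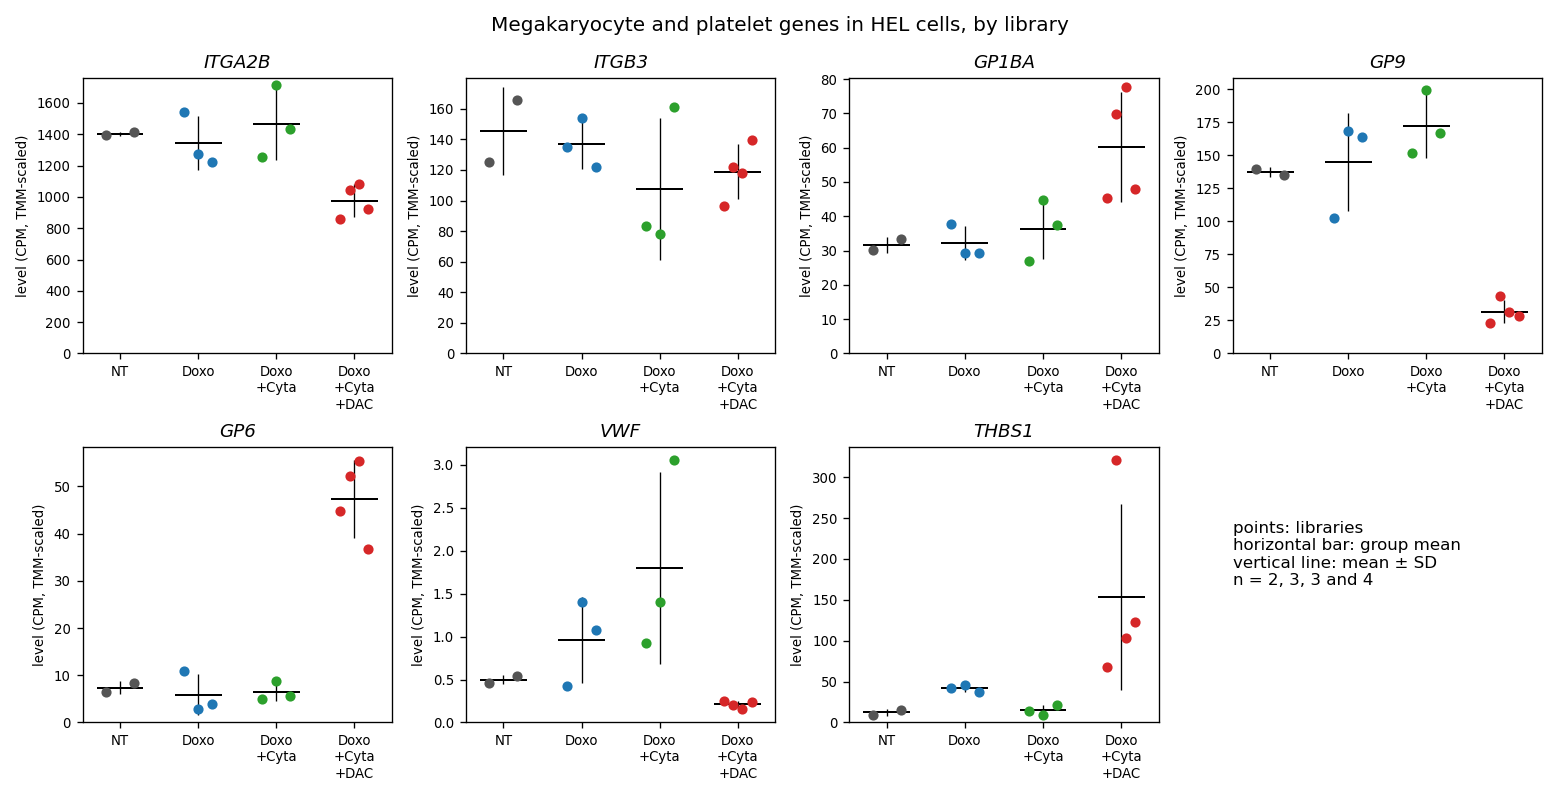
Levels of the 7 tested genes in each library (vertical axes, TMM-scaled CPM from 0) by group (horizontal axes). Points are libraries, horizontal bars are group means and vertical lines span the mean ± SD (n = 2, 3, 3 and 4). GP9 lies at 23.1 to 43.3 CPM in Doxo+Cyta+DAC and at 102 CPM or more elsewhere, and GP6 at 36.8 CPM or more in Doxo+Cyta+DAC and at 10.8 CPM or less elsewhere.

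Within a library, the balance of these receptors can be read without scaling between libraries. The ratio of GP9 to GP6 per kilobase of exon was 40.9 and 55.5 in NT, 23.9 to 150 in Doxo and 57.8 to 75.9 with Doxo+Cyta. In Doxo+Cyta+DAC it was 1.31 to 2.10, with GP6 taken at its 2266 bases of exon on the primary chromosome. The deposited length of 22660 bases, over all annotated copies, would raise each of these ratios in proportion and leave the differences between libraries the same. The ratio of GP9 to GP1BA was 11.4 and 13.1 in NT, 7.62 to 16.2 in Doxo, 12.5 to 15.9 with Doxo+Cyta and 1.13 to 1.75 with Doxo+Cyta+DAC. In both ratios the 4 Doxo+Cyta+DAC libraries lay below all others.

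**Figure D2:**
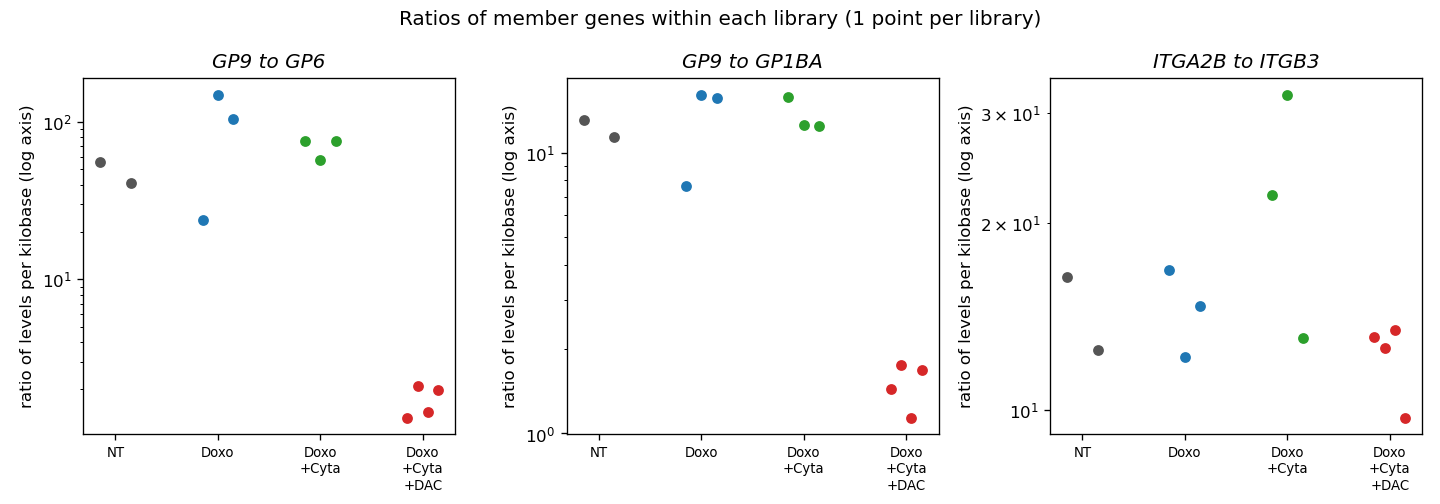
Ratios of levels per kilobase of exon within each library (vertical axes, log scale) for GP9 to GP6, GP9 to GP1BA and ITGA2B to ITGB3, by group; each point is 1 library. GP9 to GP6 lies at 1.31 to 2.10 with Doxo+Cyta+DAC and at 23.9 or more elsewhere, whereas the ranges of ITGA2B to ITGB3 overlap. The length of GP6 is that on the primary chromosome.

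PF4 and PPBP encode chemokines that platelets store in their alpha granules, platelet factor 4 and pro-platelet basic protein. They lie side by side on the minus strand of chromosome 4, PF4 from 73980825 to 73982124 and PPBP from 73986439 to 73988190. Both were near 0 and did not pass the filter on low counts. PF4 had 2 counts in Doxo 4 and 0 in the other 11 libraries. A count of 0 allows a level of up to 0.157 to 0.235 CPM in these libraries, for counting error only. PPBP had 0 counts in both NT libraries, 0, 3 and 1 in Doxo, 34, 0 and 5 with Doxo+Cyta, and 10, 1, 4 and 5 with Doxo+Cyta+DAC. The 34 counts of Doxo+Cyta 19 equal 2.10 CPM, the highest level of the gene. With no filter on low counts, PPBP did not pass in any comparison, with adjusted p = 0.0558 for Doxo+Cyta+DAC over NT and 0.0691 for Doxo+Cyta over NT.

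The chemokine genes around PF4 and PPBP on chromosome 4 gave other values. CXCL1, CXCL5, CXCL6 and PF4V1 had 0 counts in every library. CXCL8, the neutrophil attractant interleukin 8, had a mean of 1.38 CPM in NT, 27.0 in Doxo, 6.73 with Doxo+Cyta and 7.36 with Doxo+Cyta+DAC. It was higher than NT in all relapse groups, by 4.29 on the log2 scale in Doxo (adjusted p = 0.000212), 2.28 with Doxo+Cyta (adjusted p = 0.0276) and 2.41 with Doxo+Cyta+DAC (adjusted p = 0.000388). CXCL2 was higher in Doxo than in NT (log2 1.41, adjusted p = 0.0428), and CXCL3 was lower in Doxo+Cyta+DAC than in Doxo (log2 -1.15, adjusted p = 0.0396).

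VWF encodes von Willebrand factor, the ligand of the GP1BA complex, and lies on chromosome 12 from 5948874 to 6124670 on the minus strand. It was low throughout, with 9 and 9 counts in NT, 6, 24 and 17 in Doxo, 15, 21 and 50 with Doxo+Cyta, and 4, 3, 3 and 3 with Doxo+Cyta+DAC. In CPM these were 0.463 and 0.536 in NT, 0.419 to 1.40 in Doxo, 0.928 to 3.06 with Doxo+Cyta and 0.157 to 0.245 with Doxo+Cyta+DAC. The Doxo+Cyta+DAC libraries held the fewest counts, at the limit of what such libraries can show. VWF passed the filter on low counts through Doxo and Doxo+Cyta alone, so its differences from these groups are given as a description without a test. The fitted log2 fold change of Doxo+Cyta+DAC was -2.19 over Doxo and -3.06 over Doxo+Cyta. When Doxo+Cyta 22, the library with 50 counts, was left out, the latter was -2.44. From the pooled counts, 13 against 86, the ratio to Doxo+Cyta was 0.115, with 50 of the 86 counts in Doxo+Cyta 22. From 13 against 47 the ratio to Doxo was 0.213. Over NT the change was -1.22 and did not pass (adjusted p = 0.149). The ratio from 13 and 18 pooled counts was 0.391 (95% exact interval 0.176 to 0.843). That interval holds counting error only and leaves out the spread between cultures.

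Because endothelial cells also make von Willebrand factor, 9 endothelial markers were read beside it. Their summed level was 876 to 898 CPM in NT, 842 to 1081 in Doxo and Doxo+Cyta, and 603 to 793 with Doxo+Cyta+DAC. TIE1, EGFL7 and ESAM carried most of it, and ESAM is also in the list of platelet receptors used below. CLDN5 was near 0, with at most 0.0688 CPM in a library, and CDH5 had at most 1.58 CPM. Of the 7 tested markers, 1 was higher and 4 were lower in Doxo+Cyta+DAC than in Doxo+Cyta, beside 29.8% and 30.5% of all genes. EMCN, at 0.0942 CPM in Doxo+Cyta+DAC and 1.17 in Doxo+Cyta, passed the filter on low counts through groups where it was high. It cannot support the count of lower markers. The part of these markers in the VWF values was not tested.

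THBS1 encodes thrombospondin 1, a large glycoprotein of the alpha granule and of the matrix that binds CD36 and CD47. It lies on chromosome 15 from 39581079 to 39598921 on the plus strand. Its level was 9.67 and 15.4 CPM in NT, 42.0, 45.7 and 37.6 in Doxo, 13.6, 8.61 and 21.9 with Doxo+Cyta, and 67.8, 321, 103 and 123 with Doxo+Cyta+DAC. All Doxo+Cyta+DAC libraries were above the others, with replicate 31 far above its group, and all Doxo libraries were above NT and Doxo+Cyta. The log2 fold change of Doxo+Cyta+DAC was 3.62 over NT (SE 0.58, adjusted p = 0.000216), 1.88 over Doxo (SE 0.44, adjusted p = 0.00226) and 3.38 over Doxo+Cyta (SE 0.48, adjusted p = 3.84e-05). Without replicate 31 these values were 2.97, 1.23 and 2.73, and each still passed. In Doxo the change over NT was 1.74 (SE 0.55) and missed the threshold (adjusted p = 0.0569), as did the 2.84-fold difference from Doxo+Cyta (adjusted p = 0.0995). Over the alternatives tried, the adjusted p of Doxo over NT lay between 0.0047 and 0.331, on both sides of the threshold.

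Fibroblasts are a common source of THBS1, and 5 of their markers were read beside it. Their summed level was 34.9 to 51.9 CPM in NT, Doxo and Doxo+Cyta and 7.02 to 10.1 CPM in Doxo+Cyta+DAC. PDGFRB made up most of the sum, LUM was at 0 in all libraries, and DCN had 2 counts over all libraries. COL3A1 was at 0.413 to 0.490 CPM in Doxo+Cyta+DAC, at most 0.209 in Doxo and Doxo+Cyta and at 0 in NT. COL1A1 had a mean of 0.384 CPM in NT, 0.654 in Doxo and 1.10 with Doxo+Cyta. With Doxo+Cyta+DAC its mean was 0.492 CPM, with libraries from 0.0688 to 0.980. The part of these markers in the THBS1 values was not tested.

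Among relatives of THBS1, those that were tested moved the other way. THBS3 was lower in Doxo+Cyta+DAC by log2 fold changes of -1.19 over NT (adjusted p = 0.00183) and -1.48 over Doxo+Cyta (adjusted p = 8.88e-05). THBS4 was lower by -1.41 over NT (adjusted p = 0.0131) and -1.78 over Doxo+Cyta (adjusted p = 0.001). THBS2 had 0 counts, and COMP, thrombospondin 5, had at most 1 count in a library. LRP1, the endocytic receptor that clears thrombospondin, fell to 2.74 CPM from 7.68 in NT, 18.9 in Doxo and 17.3 with Doxo+Cyta (adjusted p = 6.09e-07 against Doxo+Cyta). Among the signalling receptors, CD36 rose by 0.41 over NT (adjusted p = 0.0394) and CD47 fell by 0.62 on the log2 scale (adjusted p = 0.00184). ITGAV, an integrin chain that pairs with ITGB3, was lower than Doxo by -0.66 (adjusted p = 0.0092) and did not pass over NT (-0.50, adjusted p = 0.0711).

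Counted together, 3 of the 7 tested members were higher and 2 lower in Doxo+Cyta+DAC than in NT, where 24.9% of all tested genes were higher and 23.7% lower. Against Doxo 3 were higher and 3 lower, VWF among the lower, beside 29.1% higher and 30.4% lower of all genes. Against Doxo+Cyta 3 were again higher and 3 lower, beside 29.8% and 30.5% of all genes. Since VWF entered the test through the groups where it was high, it cannot support either count, and 2 lower members, ITGA2B and GP9, remain without it. With VWF left out, the size of the members' log2 fold changes ran from 0.29 (ITGB3) to 3.62 (THBS1) over NT. It ran from 0.20 (ITGB3) to 3.02 (GP6) over Doxo and from 0.14 (ITGB3) to 3.38 (THBS1) over Doxo+Cyta. The median size over all tested genes was 0.50, 0.57 and 0.58 in these 3 comparisons. The comparisons share the Doxo+Cyta+DAC libraries and are not independent of each other.

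In Doxo over NT 0 members passed, beside 6.06% of all genes higher and 4.63% lower. In Doxo+Cyta over NT 0 passed, beside 0.911% higher and 0.551% lower, and in Doxo over Doxo+Cyta 0 passed, beside 2.32% higher and 1.07% lower. In each of these 1 member had an unadjusted p under 0.05 with edgeR. DESeq2 called 1 member in Doxo over NT, THBS1 (adjusted p = 0.048), and 0 in the other two comparisons. Without the libraries Doxo 4 and Doxo+Cyta 20, a choice made after seeing the data, 1 member was higher in Doxo than in NT, THBS1 (log2 1.71, adjusted p = 0.0374), and 1 was lower, GP6 (log2 -1.14, adjusted p = 0.00341). In that fit 18.1% of all genes were higher and 19.1% lower. VWF was then also called higher in Doxo+Cyta than in NT (log2 1.96), beside 6.02% of all genes, with the same limit from the filter on low counts. The counts of called members against Doxo+Cyta+DAC were 5, 6 and 6 with and without those libraries, VWF being part of both counts of 6.

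**Figure D3:**
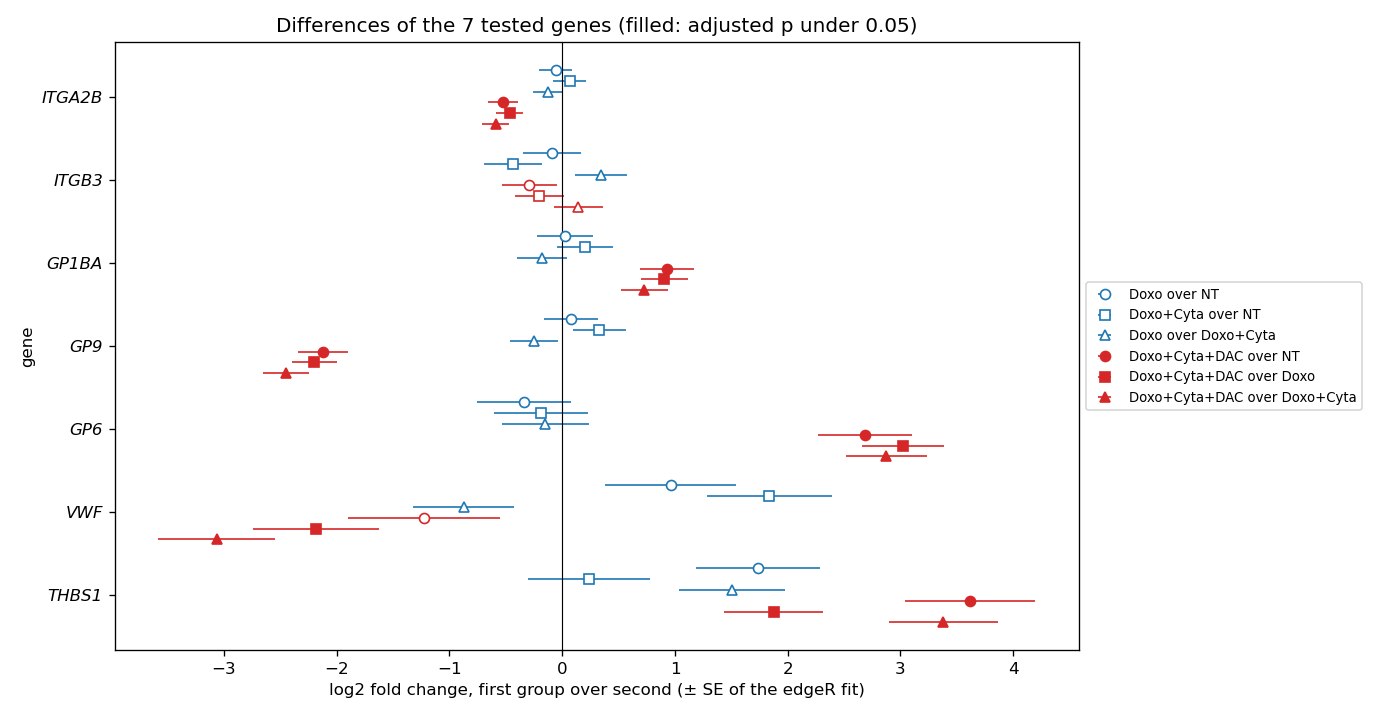
Log2 fold change (horizontal axis) of the 7 tested genes (vertical axis) in the 6 comparisons, with bars of ± 1 SE from the edgeR fit; filled symbols passed an adjusted p under 0.05. All filled symbols belong to comparisons with Doxo+Cyta+DAC (red), and ITGB3 has none; those of VWF are a description, since the gene passed the filter on low counts through Doxo and Doxo+Cyta.

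Genes were set beside each other per kilobase of exon. Fragments lost at exon junctions were not corrected for, and annotated exon records ran from 2 (GP1BA) to 52 (VWF). The order of the mean levels in NT was ITGA2B at 421 CPM per kilobase, GP9 at 153, ITGB3 at 29.7, GP1BA at 12.5, GP6 at 3.25, THBS1 at 1.73 and VWF at 0.0566. The 2 NT libraries of each gene did not overlap with those of the next in this order. In Doxo the order of these 7 was the same except that THBS1, at 5.77, stood above GP6, at 2.60. In Doxo+Cyta, ITGB3 (22.0) and GP1BA (14.4) overlapped, as did GP6 (2.85) and THBS1 (2.03).

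In Doxo+Cyta+DAC the order became ITGA2B at 293, GP9 at 35.3, ITGB3 at 24.3, GP1BA at 23.9, THBS1 at 21.2 and GP6 at 20.9. Each neighbour from GP9 down to GP6 overlapped with the next. The means of 5 genes that were spread from 1.73 to 153 in NT stood between 20.9 and 35.3. The place of THBS1 there rests on replicate 31, at 44.3, since its other libraries were at 9.36, 14.3 and 16.9. VWF was at 0.0240. GP6 would stand at 2.09 if its length were summed over the alternate contigs. GP9 made up 7.38% to 10.1% of the summed level of the 9 genes in Doxo+Cyta+DAC and 18.1% to 30.8% in the other libraries, and GP6 4.17% to 5.64% and 0.203% to 0.757%.

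**Figure D4:**
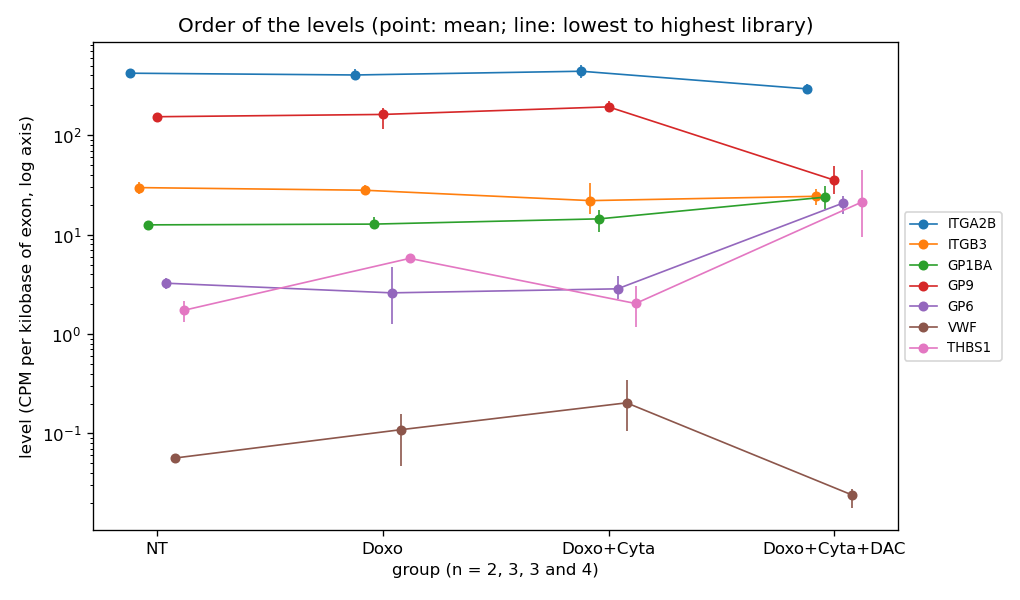
Mean level per kilobase of exon (vertical axis, CPM per kilobase, log scale) of the 7 tested genes by group (horizontal axis, n = 2, 3, 3 and 4). Points are group means, vertical lines run from the lowest to the highest library, and connecting lines only follow a gene between groups. The means of GP9, ITGB3, GP1BA, THBS1 and GP6 lie between 20.9 and 35.3 with Doxo+Cyta+DAC, that of THBS1 through replicate 31 at 44.3.

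Beyond the 9 members, 128 genes of platelet receptors, granules, signalling, cytoskeleton and transcription factors were read as lists, of which 118 were tested. Their counts are to be read against the shares of all tested genes given above, 24.9% higher and 23.7% lower over NT, 29.1% and 30.4% over Doxo, and 29.8% and 30.5% over Doxo+Cyta. In Doxo+Cyta+DAC 30 were higher and 36 lower than in NT, 26 higher and 46 lower than in Doxo, and 28 higher and 41 lower than in Doxo+Cyta. The 30 and the 28 include TREML1, which passed the filter on low counts through a group where it was high and cannot support them. The median log2 fold changes over the 118 genes were -0.07, -0.19 and -0.16, beside 0.02, -0.01 and 0.00 over all tested genes. With an NT library left out, 1 remains in that group, so no count over NT is given for those fits. In Doxo 11 were higher and 2 lower than in NT, beside 6.06% and 4.63% of all genes, and in Doxo+Cyta 3 were higher and 0 lower, beside 0.911% and 0.551%.

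Of 24 tested receptors, 4 were higher and 8 lower in Doxo+Cyta+DAC than in Doxo+Cyta, beside 29.8% and 30.5% of all genes. TREML1, a receptor of the alpha granule membrane, was at 1.95 CPM in Doxo+Cyta+DAC. In Doxo+Cyta it was at 0.210 CPM, at the floor, so that no fold is given. TREML1 passed the filter on low counts through a group where it was high, so it cannot support the 4 higher. F2RL3, the thrombin receptor PAR4, rose from 39.3 to 83.5 CPM (log2 1.09, adjusted p = 0.00101). F11R, a junctional adhesion molecule, fell from 225 to 70.4 CPM (log2 -1.68, adjusted p = 1.49e-06), and PEAR1, a receptor for contacts between platelets, from 159 to 82.0 CPM (log2 -0.96, adjusted p = 6.86e-06). P2RY1, an ADP receptor, was lower than in NT (log2 -0.96, adjusted p = 0.0498).

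Of 26 tested granule genes, 5 were higher and 12 lower than in Doxo+Cyta, beside 29.8% and 30.5% of all genes. MMRN1, the alpha granule protein multimerin 1, rose from 26.5 to 55.7 CPM (log2 1.07, adjusted p = 0.000273), and SLC18A2, which loads serotonin into dense granules, from 87.0 to 179 CPM (log2 1.04, adjusted p = 2.38e-05). STXBP2, needed for granule release, fell from 521 to 216 CPM (log2 -1.27, adjusted p = 1.00e-07). PDGFB, a growth factor of the alpha granule, fell from 1.88 to 0.612 CPM (log2 -1.61, adjusted p = 0.00608), with libraries that overlapped.

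Against NT, 6 granule genes were higher and 7 lower, beside 24.9% and 23.7% of all genes. CLU, clusterin, rose from 245 to 581 CPM (log2 1.25, adjusted p = 2.34e-05). LYST and VIPAS39, which serve the making of granules, fell by log2 -1.19 and -1.04 (adjusted p = 0.000342 and 0.000128).

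Of 26 tested signalling genes, 7 were higher and 11 lower than in NT, beside 24.9% and 23.7% of all genes. ALOX12, the platelet lipoxygenase, rose from 27.2 to 62.2 CPM (log2 1.19, adjusted p = 0.000546), and SYK, the kinase that acts below GP6, from 71.7 to 162 CPM (log2 1.18, adjusted p = 0.000531). PTGS1, the cyclooxygenase of thromboxane synthesis, fell from 317 to 145 CPM (log2 -1.13, adjusted p = 9.50e-06). APBB1IP, the Rap1 effector that activates integrins, fell by 0.99 on the log2 scale (adjusted p = 0.017), and FYB, an adaptor in the same path, was lower than in Doxo+Cyta by -0.92 (adjusted p = 0.00428).

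The 19 cytoskeleton genes were all tested, and 7 were higher and 2 lower than in NT, beside 24.9% and 23.7% of all genes. ZYX, a focal adhesion protein, rose from 147 to 344 CPM (log2 1.22, adjusted p = 0.000989), MYL9, a myosin light chain, from 1.76 to 6.12 CPM (log2 1.79, adjusted p = 0.000179), and ACTN1, alpha-actinin 1, was higher than in Doxo+Cyta by 0.95 (adjusted p = 3.91e-05). TUBB1, the beta tubulin of the platelet marginal band, fell from 41.3 to 14.9 CPM (log2 -1.48, adjusted p = 0.00019). PLEK, pleckstrin, was lower by -0.26 (adjusted p = 0.0332).

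Of the 23 transcription factors, 5 were higher and 9 lower than in NT, beside 24.9% and 23.7% of all genes. ERG, an ETS factor of stem cells and megakaryocytes, rose from 7.48 to 21.9 CPM (log2 1.55, adjusted p = 0.000129), and MECOM, a stem cell factor, from 21.2 to 44.0 CPM (log2 1.06, adjusted p = 0.00048). FLI1, the ETS factor of megakaryocytes, fell from 355 to 154 CPM (log2 -1.21, adjusted p = 4.40e-05), and LDB1, a bridging protein of GATA1 complexes, from 462 to 217 CPM (log2 -1.09, adjusted p = 3.10e-06). MAFG, a partner of NFE2, was lower than in Doxo+Cyta by -1.23 (adjusted p = 4.22e-06).

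**Figure D5:**
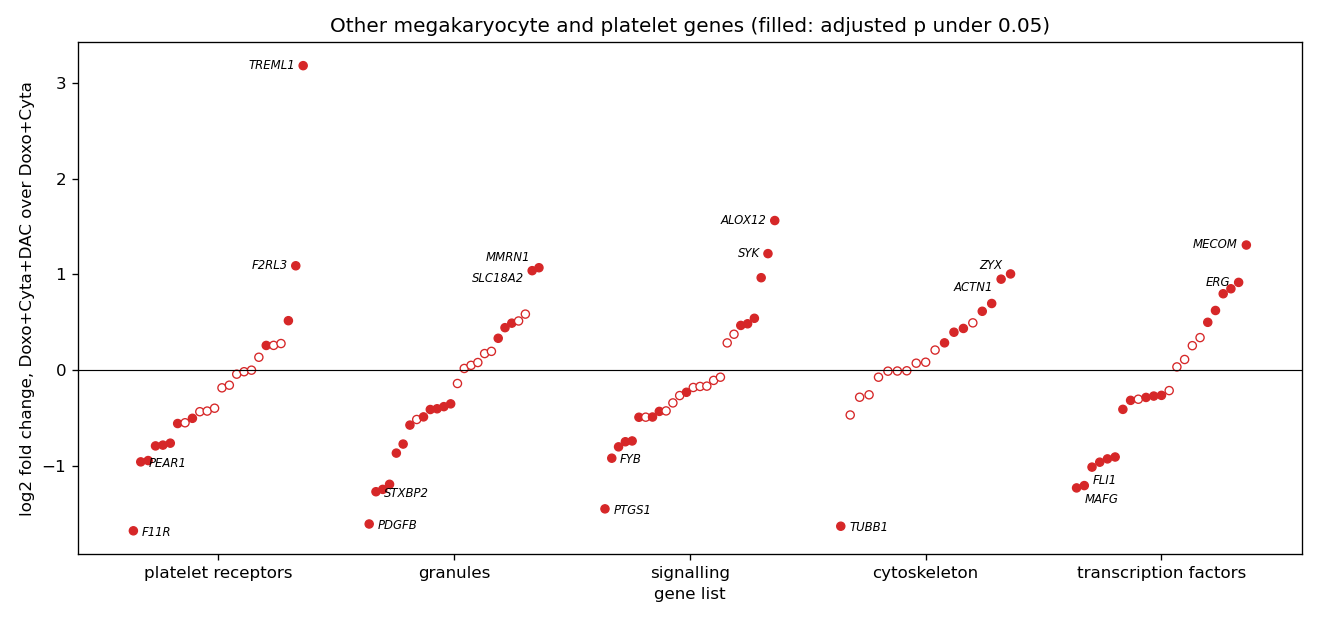
Log2 fold change of Doxo+Cyta+DAC over Doxo+Cyta (vertical axis) for the tested genes of 5 lists (horizontal axis), sorted within each list; filled points passed an adjusted p under 0.05. Names mark the genes with the highest and lowest changes, and 28 points are filled above 0 and 41 below. The point of TREML1 is a description, since the gene passed the filter on low counts through a group where it was high.

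In Doxo relapses, granule and cytoskeleton genes made up 8 of the 11 list genes that were higher than in NT, 4 of each, where 6.06% of all genes were higher. CLU (log2 1.24, adjusted p = 0.000667), SPARC (log2 0.94, adjusted p = 0.00531) and SRGN (log2 0.99, adjusted p = 0.00142), all stored in granules, were among them. In Doxo+Cyta the 3 list genes higher than NT were CLU, SPARC and MYL9. SPARC and SRGN were chosen after their values were seen. Without the libraries Doxo 4 and Doxo+Cyta 20, 18.1% of all genes were higher and 19.1% lower in Doxo than in NT. With Doxo+Cyta 6.02% of all genes were then higher. The share lower was not counted, so a count in either direction cannot be set against the 6.02%. No share of all genes is given for fits with 1 replicate left out. Without both libraries the numbers of list genes called in either direction were 47 in Doxo and 20 with Doxo+Cyta, against 13 and 3 with those libraries. With 1 replicate left out at a time they ranged from 3 to 24 in Doxo and from 0 to 6 in Doxo+Cyta.

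The genes whose pattern over the 12 libraries was closest to each member were found by the root-mean-square difference of centred log2 CPM among 12746 genes. For GP9, whose own spread was 1.12, they were N4BP3, ARG2 and SMIM6, with differences of 0.187 to 0.212. For GP6, with a spread of 1.47, SLC19A1 and SFXN2 were among the 3 closest (0.252 and 0.298). PPM1F, KIFC3 and NFKBID were closest to GP1BA (0.127 to 0.176), and DOK3, ADCK4 and STK16 to ITGA2B (0.105 to 0.110). For ITGB3, with a spread of 0.336, PRUNE2, ZC3H12C and OXSR1 differed by 0.183 to 0.202. For THBS1, with a spread of 1.53, they were TLR4, AKAP12 and PHLDA1 (0.552 to 0.636), and for VWF, with a spread of 1.04, PLCD1, TMEM120A and RRAS (0.408 to 0.445). No member was among the 3 closest genes of another.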

How the data were processed

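RNA of 12 HEL samples was sequenced as paired reads from TruSeq libraries. According to the labels and methods, the authors aligned the reads to GRCh38 with Bowtie2 2.2.8 and made the deposited counts with featureCounts 1.6.0, as whole fragments per gene over exons, without regard to strand and without chimeric fragments. Bowtie2 does not split reads over exon junctions, so fragments that span them can be lost. The submitters' processing notes also name DESeq2. The counts are not normalized. Of 26485 genes 4 lacked a count and were left out. Samples were grouped by their titles. The series text names 3 untreated replicates, and the 2 labelled ones were used.

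Counts were fitted with edgeR 4.0.16 in R 4.3.3 (filterByExpr, TMM, glmQLFit and glmQLFTest) in 1 model of all 12 samples, with two-sided tests adjusted by Benjamini-Hochberg over 14164 genes. Log2 CPM used a prior count of 2. Exon lengths were summed on the primary chromosomes from the deposited exon records. Intervals are 95%, and the floor of a level is 3 counts. The scripts were tested on simulated data. The 9 members and the gene lists were chosen with earlier results of these data known. List genes were named where they had the 2 highest changes per direction at an adjusted p under 0.05 and at least 1 CPM in the higher group, in Doxo+Cyta+DAC over NT or over Doxo+Cyta, and exceptions are stated. A few genes that the rule names are not reported here. Alternatives were DESeq2 1.42.0, RLE and upper-quartile scaling, other filters on low counts, only the groups compared, each library left out, Doxo 4 and Doxo+Cyta 20 left out together (added after seeing the data), the deposited length and a prior count of 0.25.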

Additional observations from a re-analysis of the deposited data

How the results depend on the processing

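The members called in Doxo+Cyta+DAC over NT (5), over Doxo (6) and over Doxo+Cyta (6) changed by at most 1 under any alternative. Both counts of 6 include VWF, which passed the filter on low counts through Doxo and Doxo+Cyta and cannot support them. Of all tested genes 24.9% were higher and 23.7% lower over NT. The shares were 29.1% and 30.4% over Doxo, and 29.8% and 30.5% over Doxo+Cyta. In Doxo over NT the count of 0 became 1 under DESeq2, with no filter and with only the groups compared, 0 to 1 with a replicate left out, and 2 without Doxo 4 and Doxo+Cyta 20 together. In Doxo+Cyta over NT it became 1 without those libraries. In Doxo over Doxo+Cyta it became 1 with no filter and 0 to 1 with a replicate left out. For THBS1 in Doxo over NT the adjusted p was 0.048 under DESeq2, 0.0153 with no filter, 0.0047 with only the groups compared and 0.00868 without Doxo+Cyta+DAC 31, in a range of 0.0047 to 0.331 over all alternatives.

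List genes called in Doxo over NT (13) were 21 with only the groups compared, 3 to 24 with a replicate left out and 47 without both libraries. In Doxo+Cyta over NT (3) they were 9 under DESeq2, 1 with only the groups compared, 0 to 6 with a replicate left out and 20 without both. Beside the counts without both libraries, 18.1% of all genes were higher and 19.1% lower in Doxo than in NT. The share higher in Doxo+Cyta than in NT was 6.02%. The share lower was not counted, so the 20, called in either direction, cannot be set against it. In Doxo over Doxo+Cyta (5) the list genes called were 9, 2, 2 to 7 and 12 in the same settings. In Doxo+Cyta+DAC over NT (66) they were 43 to 76 with a replicate left out, the lowest without either NT library.

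Of 798 alternative values of the log2 fold changes, 759 kept direction and call, 15 gained a call, 1 lost it and 23 turned direction, all of these for values that were not called. VWF in Doxo+Cyta+DAC over NT gained it with only the groups compared (-1.25, adjusted p = 0.04999). For GP1BA in Doxo over NT the change was -0.019 under upper-quartile scaling, -0.028 with no filter, -0.14 to 0.10 with a replicate left out and -0.14 without both libraries. Without both libraries ITGA2B in Doxo+Cyta over NT was -0.082 (-0.082 to 0.15 with a replicate left out), ITGB3 in Doxo+Cyta+DAC over Doxo+Cyta -0.042 (-0.042 to 0.55) and GP9 in Doxo over Doxo+Cyta 0.053. With a replicate left out, the ranges were -0.28 to 0.13 for ITGB3 and -0.074 to 0.24 for GP9 in Doxo over NT, -0.49 to 0.014 for GP6 and -0.18 to 0.61 for THBS1 in Doxo+Cyta over NT, and -0.93 to 0.18 for GP6 in Doxo over Doxo+Cyta. The causes were not tested.

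No paired analysis was possible because no replicate number is shared between groups. With 1 NT library left, its spread is taken from the other groups. At these depths PF4 in every library, PPBP in most and VWF in Doxo+Cyta+DAC stand at or near the limit that a count of 0 allows.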

Other observations

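Erythroid genes, which HEL cells carry beside the platelet genes, summed to 8609 and 9709 CPM in NT, 10879 to 11899 in Doxo, 10558 to 12173 with Doxo+Cyta and 7955 to 11799 with Doxo+Cyta+DAC. Of 18 tested erythroid genes, 4 were higher and 6 lower in Doxo+Cyta+DAC than in NT, beside 24.9% and 23.7% of all tested genes. Over Doxo+Cyta 3 were higher and 10 lower, beside 29.8% and 30.5%. Monocyte markers summed to 45.1 to 71.9 CPM over all libraries, and 3 of 4 tested were lower in Doxo+Cyta+DAC than in Doxo+Cyta, beside the same 30.5%. Lymphoid markers summed to at most 6.14 CPM in a library, with MS4A1 at 0 throughout.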
